A study of Mus musculus with 18 samples.

Results

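The 39 genes described here are markers and functional genes of macrophages and other myeloid cells, without the lysozyme genes. They were chosen by name as those of a list of myeloid genes with a probe set of a single gene symbol in the platform annotation. That rule uses no measured value, although it was drawn up with earlier results of these data known. Where a gene had several such probe sets, the one with the greatest mean signal stood for it, and all 39 were found among the 18194 genes measured in that way.

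Total RNA was hybridised to Affymetrix arrays in B-cell lymphoma cells explanted from lymph nodes of Eµ-myc mice of C57/Bl6 background, in which the Myc oncogene is under an immunoglobulin heavy-chain enhancer that is active in B cells. All groups, the untreated one included, lacked Suv39h1, a methyltransferase of histone H3, and all carried 2 retroviral constructs, the anti-apoptotic gene Bcl2 and Suv39h1-ERT2, which puts the enzyme back in a form switched on by 4-hydroxytamoxifen (4-OHT). The 3 lymphomas, numbered 4146, 4936 and 5043, are the biological replicates, and values are given below in that order. The groups were untreated cells (n = 3), cells after 5 days with Adriamycin (ADR, a DNA-damaging drug, n = 3), cells after 5 days with ADR and 4-OHT (n = 3), and cultures grown for another 14 days without either compound. The last were the outgrowth after ADR alone (n = 2, lymphomas 4146 and 4936; the array of 5043 held no values and its label says that it failed quality control) and the small and big cells of the outgrowth after ADR with 4-OHT (n = 3 each). No group received 4-OHT alone, so the fusion protein cannot be told apart from 4-OHT itself. All treatments were done in vitro.

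Macrophages and monocytes depend on the colony-stimulating factor receptor Csf1r and on the transcription factors PU.1 and C/EBP. Their activating Fc and lectin receptors signal through the small adaptors Tyrobp and Fcer1g, they sense microbes through Toll-like receptors and Cd14, and they clear debris with scavenger receptors, complement and lysosomal proteins. B cells share part of this equipment, such as the Toll-like receptors and Cybb, while Csf1r, Adgre1 (F4/80), Cd14 and C1q are regarded as marks of the myeloid lineage. Eµ-myc lymphomas in the lymph node contain macrophages that take up dying tumour cells.

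The values are log2 signals. The median of each probe set is the same in all 3 lymphomas, so offsets between lymphomas were removed before deposit, and a level in one lymphoma compares with another only relative to that median. Arrays have no read depth, and their number, 17, limits the precision. The median of all deposited values, 4.86, is used below as a line under which a signal is treated as background; array medians ran from 4.79 to 4.93. The mean of 14 B-cell markers was above that line on every array, at 7.38 to 9.10. Single markers were under it on a few arrays. On ADR outgrowth of 4146, which had the lowest mean, 12 of the 14 were above it, with Ms4a1 at 3.34 and Blk at 4.71. On untreated of 4936 and big outgrowth of 5043 it was 13 of 14. On the first principal component the arrays labelled ADR 5 d of 4936, small outgrowth of 5043 and big outgrowth of 5043 scored 67.9, 46.1 and 54.9, and the other 14 arrays -37.2 to 11.6. Xist, which coats and silences an X chromosome, exceeded its lymphoma's median on these 3 arrays by 5.70, 5.80 and 5.99, and was at -3.49 relative to that median on the array labelled ADR+4-OHT 5 d of 4146. It was at 2.72 and 1.58 on big outgrowth of 4936 and 4146, so that it lay above the median on all 3 big outgrowth arrays, and between -0.72 and 0.46 on the other 11. The labels of the 4 arrays farthest from their median are treated as in doubt, and results that rest on them are given without them where a call or a direction changed or a value moved by over 1.5 times. Without the 3, ADR 5 d, small and big outgrowth have 2 lymphomas each. The 3 are in neither group of ADR with 4-OHT against untreated, so there their removal can change the error and the adjusted p but not the difference. As a measure of RNA integrity, the 3′ probe set of Actb exceeded the 5′ one by 1.39, 1.65 and 1.41 in untreated cells, 1.08, 0.56 and 1.17 after ADR, and 1.51, 1.17 and 1.28 after ADR with 4-OHT. No probe set carried Suv39h1 as its only symbol, so the deleted gene was not analysed here.

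Promoters of 4 of the genes are printed because the genes have unlike signals: Itgam and Mpeg1 differed widely between arrays, Cd68 was above the line on all arrays and C1qb was above it on none. Each line gives the 250 bases upstream of the start in RefSeq's table (build GRCm38.p6), 5′ to 3′ on the gene's strand, with matches to the searched motifs in capitals.
Itgam (chr7:128062390-128062639, plus strand): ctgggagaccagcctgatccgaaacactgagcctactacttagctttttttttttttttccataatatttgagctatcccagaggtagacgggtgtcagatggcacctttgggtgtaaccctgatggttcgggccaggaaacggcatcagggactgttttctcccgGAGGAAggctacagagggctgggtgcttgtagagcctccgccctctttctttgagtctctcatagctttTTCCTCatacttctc
Cd68 (chr11:69666171-69666420, minus strand): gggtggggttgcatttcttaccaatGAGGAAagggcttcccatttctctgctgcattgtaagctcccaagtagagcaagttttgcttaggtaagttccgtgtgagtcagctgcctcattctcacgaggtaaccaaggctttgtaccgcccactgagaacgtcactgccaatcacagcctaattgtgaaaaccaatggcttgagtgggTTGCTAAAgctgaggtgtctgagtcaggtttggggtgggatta
Mpeg1 (chr19:12460520-12460769, plus strand): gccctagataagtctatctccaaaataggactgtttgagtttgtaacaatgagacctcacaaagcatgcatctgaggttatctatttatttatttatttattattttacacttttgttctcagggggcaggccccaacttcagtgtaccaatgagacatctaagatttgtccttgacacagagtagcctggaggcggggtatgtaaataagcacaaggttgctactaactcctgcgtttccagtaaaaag
C1qb (chr4:136886201-136886450, minus strand): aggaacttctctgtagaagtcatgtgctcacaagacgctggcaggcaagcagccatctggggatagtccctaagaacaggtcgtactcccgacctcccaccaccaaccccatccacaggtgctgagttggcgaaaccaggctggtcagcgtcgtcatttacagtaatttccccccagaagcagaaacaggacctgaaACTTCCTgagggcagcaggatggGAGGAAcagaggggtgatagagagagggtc
The letters searched on both strands were GAGGAA, the core of the PU.1 box, AGGAAGT, a longer PU.1 core, and TTGCNNAA, a C/EBP core. They were chosen after the values were known. In Itgam the box lay 84 to 79 and, on the other strand, 15 to 10 bases before the start. Cd68 held it at 225 to 220 and a C/EBP match at 43 to 36. C1qb held the box at 30 to 25 and the longer core at 53 to 47, whereas Mpeg1 held no match to these letters. Of the 39 genes, 30 had a promoter in the table, and 16 of the 30 held GAGGAA, 5 held AGGAAGT and 3 held TTGCNNAA. Over 27018 promoters of that length the shares were 23.1%, 7.81% and 9.56%. Of the 16 tested genes with a promoter, 8 held GAGGAA, 1 held AGGAAGT and 2 held TTGCNNAA. In 1 gene, C1qc, GAGGAA and AGGAAGT overlap. A match describes the letters only, and binding was not measured.

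Of the 39 genes, 13 lay above the line of 4.86 on all 17 arrays, 15 on some and 11 on none. The 13 were Cebpb, Tyrobp, Fcer1g, Fcgr1, Fcgr3, Sirpa, Trem2, Tlr2, Cd68, Msr1, Siglec1, Apoe and Cybb. The 11 were Cebpa, a transcription factor of granulocyte and monocyte precursors, the β-glucan receptor Clec7a, the clearance receptors Mrc1, Marco, Cd163, Mertk, Vsig4 and Folr2, and the 3 chains of complement C1q. Over all genes 30.7% were never above the line and 54% always, against 28.2% and 33.3% of the 39. The test was run on genes with a value of at least 4.86 on at least 3 arrays, which 24 of the 39 and 11897 of all genes met. A gene that met this only through a group in which it was high had to differ between groups, so counts among the 24 are not evidence that the 39 differ.

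**Figure D1:**
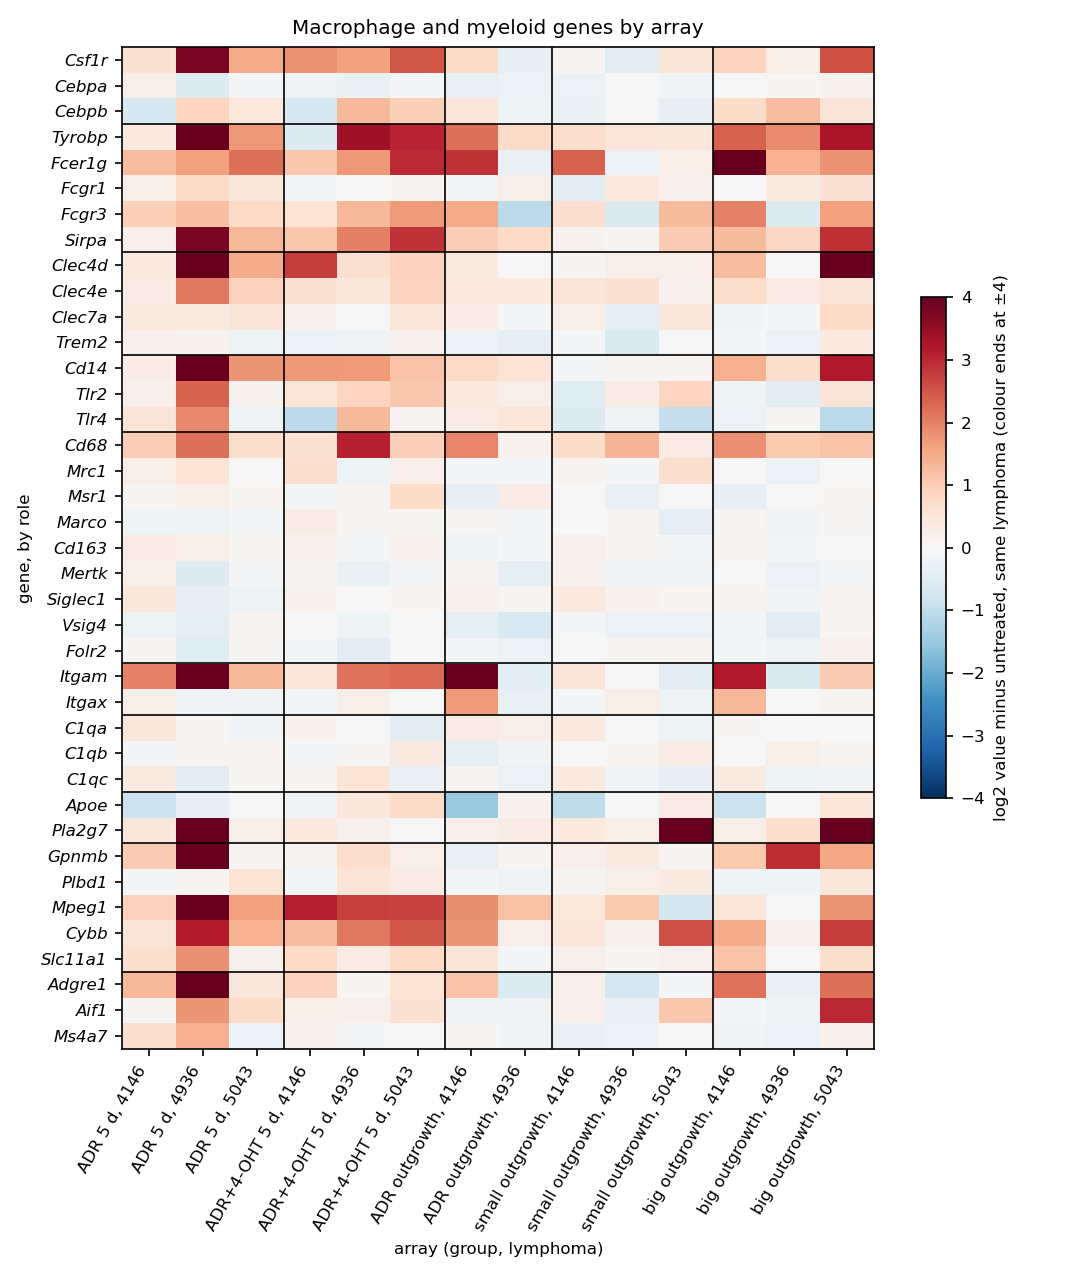
Heat map of the 39 genes (rows, ordered by role) on the 14 arrays of treated and outgrown cells (columns), coloured by the log2 value minus that of the untreated array of the same lymphoma, with the colour ending at 4 log2 units in either direction. The array labelled ADR 5 d of 4936 holds the most dark cells (20 of 39 genes at least 1 unit above untreated), and the C1q genes and most clearance receptors are pale on all arrays.

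The adaptors and Fc receptors had a median difference from untreated cells of 1.69 after ADR, which was 0.65 without the 3 arrays, and 1.94 after ADR with 4-OHT, which was 2.38 without all 4. Tyrobp (DAP12, chr7:30413782-30417582) is a transmembrane adaptor with an ITAM motif for TREM and other myeloid receptors. Its signal was 8.43, 7.64 and 7.25 without treatment, 8.82, 12.84 and 8.98 with ADR and 7.91, 11.04 and 10.30 with both compounds. The ADR outgrowth gave 10.62 and 8.42, the small cells 9.14, 8.13 and 7.72 and the big cells 10.79, 9.53 and 10.52. The untreated values lay below all values after ADR and in big outgrowth, while the values after ADR with 4-OHT overlapped the untreated ones through 4146. The difference from untreated cells was 2.44 (SE 1.07, limma adjusted p = 0.432) after ADR, 1.97 (SE 1.07, adjusted p = 0.350) after ADR with 4-OHT and 2.51 (SE 1.07, adjusted p = 0.281) in big outgrowth. Without the 3 arrays that stood apart the first and last were 1.0 and 2.43 (adjusted p = 0.948 and 0.401). Without ADR+4-OHT 5 d of 4146 as well, the difference after both compounds was 3.24 and passed the test (adjusted p = 0.00832).

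Fcer1g, the γ chain that carries the ITAM of Fc receptors, was followed after its values were seen (chr1:171229572-171234349). Untreated cells had 5.07, 6.17 and 5.06, ADR gave 6.30, 7.81 and 7.27, and ADR with 4-OHT gave 6.15, 7.91 and 8.04. Outgrown cells had 7.95 and 5.88 (ADR), 7.43, 5.92 and 5.31 (small) and 9.27, 7.56 and 6.86 (big). Its values after ADR and in big outgrowth did not overlap the untreated ones, and each lymphoma lay at least 1 unit above untreated after ADR, after ADR with 4-OHT and in big outgrowth. The differences were 1.69, 1.94 and 2.46 (SE 0.806 each, adjusted p = 0.447, 0.215 and 0.178). The first and last were 1.16 and 3.14 without the 3 arrays (adjusted p = 0.941 and 0.218), and without all 4 the difference after both compounds was 2.73 (adjusted p = 0.0564). The highest value was that of big outgrowth of 4146.

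Fcgr3, the low-affinity IgG receptor III, and Fcgr1, the high-affinity one, bind antibody-coated targets. For Fcgr3 the untreated arrays gave 8.47, 9.54 and 8.01, the ADR arrays 9.41, 10.73 and 8.80 and the ADR with 4-OHT arrays 9.01, 10.85 and 9.72. Later, Fcgr3 was 9.94 and 8.49 in ADR outgrowth, 9.12, 8.97 and 9.27 in small and 10.46, 8.99 and 9.64 in big outgrowth. Fcgr3 overlapped the untreated values in every group, with a largest difference of 1.19 after ADR with 4-OHT (SE 0.609, adjusted p = 0.320), or 1.86 without the 4 arrays (adjusted p = 0.0765). Fcgr1 was between 4.97 and 5.87 on all arrays. A second probe set of Fcgr1 ran from 2.81 to 6.68, with 5.15, 6.68 and 3.16 after ADR and a mean difference of 1.33 there, against 0.49 for the one used. Sirpa, the receptor of the CD47 "do not eat me" signal, was named after its values were seen. Sirpa was 5.62, 5.39 and 4.87 in untreated cells, 5.81, 9.17 and 6.20 after ADR and 6.69, 7.39 and 7.77 after ADR with 4-OHT. In the outgrowths it was 6.59 and 6.19 after ADR alone, 5.77, 5.44 and 5.90 in small cells and 6.88, 6.22 and 7.79 in big cells. All values after ADR, after ADR with 4-OHT, in ADR outgrowth and in big outgrowth were above the untreated ones. After ADR with 4-OHT Sirpa was higher by 1.99 (SE 0.711, adjusted p = 0.152), with an adjusted p of 0.0212 without the 3 arrays, and by 2.38 without all 4 (adjusted p = 0.00505). The other 2 probe sets of Sirpa gave mean differences of 0.16 and 0.11, and the mean over its probe sets 0.75.

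**Figure D2:**
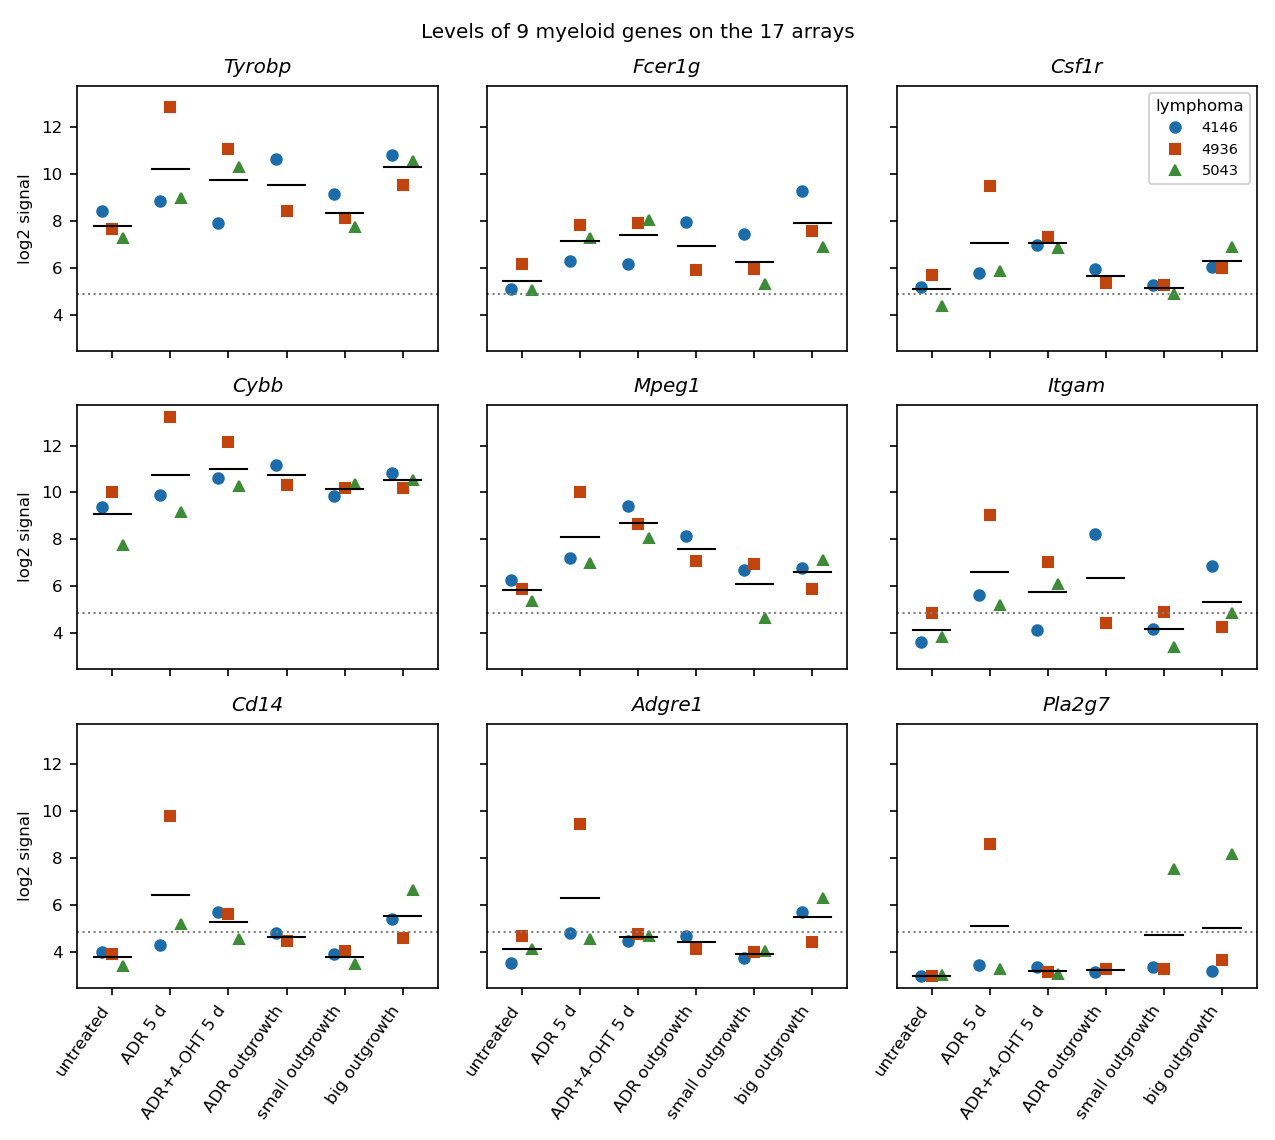
Log2 signal of 9 genes in the 6 groups, 1 point per array with the lymphoma as symbol and colour, a black line at the group mean and a dotted line at 4.86, the median of all values. The ADR 5 d array of 4936 is the highest or near the highest point for most of the genes, and Pla2g7 is high on 3 arrays and near 3 on the other 14.

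Csf1r is the receptor for CSF1 and IL-34 that macrophages need to survive. Its signal was 5.17, 5.70 and 4.35 without treatment, 5.76, 9.48 and 5.84 with ADR and 6.97, 7.31 and 6.84 with both compounds. The ADR outgrowth gave 5.92 and 5.36, the small cells 5.26, 5.28 and 4.86 and the big cells 6.04, 5.97 and 6.89. All 3 values after ADR, after ADR with 4-OHT and in big outgrowth were above the untreated ones. After ADR alone 1 value, that of 4936, lay far above the other 2. The difference after ADR with 4-OHT was 1.97 (SE 0.712, adjusted p = 0.156), with an adjusted p of 0.0127 without the 3 arrays, and 2.08 without all 4 (adjusted p = 0.00915). The other 2 probe sets of Csf1r gave 0.70 and 0.04 for the same mean difference, and the mean over its probe sets 0.90. After ADR alone Csf1r differed by 1.95 (adjusted p = 0.374), and 0.83 without the 3 arrays (adjusted p = 0.941). Cebpb, a C/EBP factor that B cells also express under stress, was above the line throughout. Untreated cells had 10.21, 9.65 and 9.65, ADR gave 9.56, 10.50 and 10.08, and ADR with 4-OHT gave 9.57, 10.95 and 10.59. Outgrown cells had 10.69 and 9.49 (ADR), 9.95, 9.66 and 9.32 (small) and 10.94, 10.89 and 10.17 (big). On all arrays its differences from untreated cells were at most 0.83, in big outgrowth (SE 0.413, adjusted p = 0.339), and those groups overlapped. That difference was 1.13 without the 3 arrays (adjusted p = 0.416). After ADR with 4-OHT it was 0.53 on all arrays and 1.04 without all 4 (adjusted p = 0.108). Big cells lay above small cells by 1.03 (SE 0.413, adjusted p = 0.401), without overlap. Cebpa stayed between 3.61 and 4.33.

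Lectin and TREM receptors differed mainly on a few arrays. Clec4d (MCL) is a receptor for mycobacterial glycolipid. For Clec4d the untreated arrays gave 3.86, 4.12 and 3.31, the ADR arrays 4.24, 9.41 and 4.79 and the ADR with 4-OHT arrays 6.62, 4.73 and 4.23. Later, Clec4d was 4.23 and 4.10 in ADR outgrowth, 3.94, 4.34 and 3.56 in small and 5.11, 4.13 and 8.16 in big outgrowth. It was above the line on 4 arrays, ADR 5 d of 4936, ADR+4-OHT 5 d of 4146, and big outgrowth of 4146 and 5043, 3 of which are among the 4 in doubt. Its difference after ADR was 2.38 (SE 1.27, adjusted p = 0.487) and 0.76 without the 3 arrays. Trem2, a lipid-sensing receptor that pairs with Tyrobp, was near 5 throughout. Trem2 was 5.31, 5.43 and 5.19 in untreated cells, 5.48, 5.56 and 5.00 after ADR and 5.05, 5.28 and 5.37 after ADR with 4-OHT. In the outgrowths it was 5.08 and 5.05 after ADR alone, 5.22, 4.86 and 5.23 in small cells and 5.24, 5.18 and 5.59 in big cells. The range of Trem2 values of all 17 arrays was 4.86 to 5.59, a narrower span than that of its adaptor Tyrobp (7.25 to 12.84). Clec4e (Mincle), a receptor for the same class of glycolipid, was above the line on 1 array, ADR 5 d of 4936 (4.88), and Clec7a on none (3.96 to 4.80).

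Among the Toll-like receptors and their co-receptor, Cd14, which hands lipopolysaccharide to Tlr4, had the widest range. Its signal was 4.00, 3.92 and 3.41 without treatment, 4.29, 9.81 and 5.19 with ADR and 5.71, 5.63 and 4.55 with both compounds. The ADR outgrowth gave 4.80 and 4.48, the small cells 3.93, 4.04 and 3.48 and the big cells 5.43, 4.62 and 6.63. All ADR values and all values after ADR with 4-OHT lay above the highest untreated value of 4.00, and 2 of these 6 were under the line. All values of ADR outgrowth and of big outgrowth also lay above 4.00. The difference after ADR was 2.65 (SE 1.04, adjusted p = 0.389), with 0.29, 5.88 and 1.77 in the 3 lymphomas, and 0.99 without the 3 arrays (adjusted p = 0.941). With both compounds it was 1.52 (adjusted p = 0.474), with 1.72, 1.71 and 1.14 by lymphoma. Tlr2, the receptor for bacterial lipoproteins, is also expressed by B cells. Untreated cells had 7.23, 7.06 and 6.79, ADR gave 7.41, 9.43 and 6.94, and ADR with 4-OHT gave 7.71, 7.92 and 7.86. Outgrown cells had 7.63 and 7.29 (ADR), 6.76, 7.35 and 7.64 (small) and 7.05, 6.66 and 7.32 (big). Only the array ADR 5 d of 4936 exceeded 8 among these, and the difference after ADR with 4-OHT was 0.81 (SE 0.486, adjusted p = 0.407). Tlr4 ran from 4.29 (ADR+4-OHT 5 d of 4146) to 6.88 (ADR 5 d of 4936).

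Of the 9 scavenger and clearance receptors, Cd68 alone had a difference of at least 1 log2 unit from untreated cells in any group. Cd68 is a lysosomal membrane protein used to stain macrophages. For Cd68 the untreated arrays gave 7.40, 7.04 and 7.54, the ADR arrays 8.37, 9.23 and 8.25 and the ADR with 4-OHT arrays 7.98, 10.15 and 8.48. Later, Cd68 was 9.36 and 7.18 in ADR outgrowth, 8.13, 8.40 and 7.88 in small and 9.22, 8.10 and 8.69 in big outgrowth. After ADR, after ADR with 4-OHT and in big and small outgrowth all values exceeded the highest untreated value of 7.54. The differences were 1.29, 1.54, 1.34 and 0.81 (SE 0.606 each, adjusted p = 0.445, 0.190, 0.302 and 0.731). The value after ADR was 0.94 without the 3 arrays, and without all 4 that after both compounds was 2.20 (adjusted p = 0.0771). Msr1 (5.16 to 6.16) and Siglec1 (5.28 to 5.91) lay above the line on all arrays with little spread. Mrc1, Marco, Cd163, Mertk, Vsig4 and Folr2, which mark resident and alternatively activated macrophages, lay under it on all, including the arrays on which other members were highest. On ADR 5 d of 4936, for example, Cd163 was 2.94 and Vsig4 3.22.

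The integrin genes Itgam and Itgax encode the α chains CD11b and CD11c, which pair with Itgb2. Itgam was 3.65, 4.88 and 3.86 in untreated cells, 5.62, 9.04 and 5.19 after ADR and 4.14, 7.06 and 6.11 after ADR with 4-OHT. In the outgrowths it was 8.23 and 4.46 after ADR alone, 4.17, 4.91 and 3.43 in small cells and 6.86, 4.29 and 4.89 in big cells. Itgam (chr7:128062640-128118491) was the highest on ADR 5 d of 4936, and then on ADR outgrowth of 4146. After ADR all 3 lymphomas were at least 1 unit above untreated, by 1.97, 4.16 and 1.33, with a difference of 2.49 (SE 1.18, adjusted p = 0.445) and of 1.20 without the 3 arrays (adjusted p = 0.948). In the outgrowths it was higher than untreated by 4.57 in ADR outgrowth and 3.20 in big outgrowth of 4146, and differed from it by -0.42 and -0.59 in those of 4936. Itgax was above the line on 2 arrays, the same ADR outgrowth and big outgrowth of 4146 (5.76 and 5.38), and at 3.87 to 4.44 on the other 15.

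Complement C1q is secreted mainly by tissue macrophages, and its 3 chains are encoded side by side on chromosome 4. For C1qa the untreated arrays gave 3.52, 3.73 and 3.85, the ADR arrays 3.98, 3.79 and 3.75 and the ADR with 4-OHT arrays 3.67, 3.75 and 3.41. Later, C1qa was 3.84 and 4.01 in ADR outgrowth, 3.90, 3.75 and 3.66 in small and 3.56, 3.76 and 3.87 in big outgrowth. For C1qb the untreated arrays gave 2.90, 2.81 and 2.76, the ADR arrays 2.86, 2.88 and 2.88 and the ADR with 4-OHT arrays 2.84, 2.87 and 3.11. Later, C1qb was 2.55 and 2.69 in ADR outgrowth, 2.90, 2.90 and 3.06 in small and 2.89, 3.03 and 2.88 in big outgrowth. C1qa and C1qb were under the line in every group, with ranges of 3.41 to 4.01 and 2.55 to 3.11, and C1qc ran from 3.41 to 4.41. Differences of the 3 genes from untreated cells were between -0.18 and 0.21 in all groups. C1q was thus under the line also on the arrays where other members were highest.

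Among secreted lipid proteins, Pla2g7, the platelet-activating factor acetylhydrolase, was high on 3 arrays only. For Pla2g7 the untreated arrays gave 2.98, 2.99 and 3.05, the ADR arrays 3.44, 8.61 and 3.29 and the ADR with 4-OHT arrays 3.36, 3.16 and 3.07. Later, Pla2g7 was 3.18 and 3.30 in ADR outgrowth, 3.38, 3.27 and 7.55 in small and 3.21, 3.67 and 8.17 in big outgrowth. Values of 8.61, 7.55 and 8.17 were found on ADR 5 d of 4936 and on small and big outgrowth of 5043, the 3 arrays that stood apart, and the other 14 lay between 2.98 and 3.67. Xist is high on the same 3 arrays; what part the identity of these samples has in the Pla2g7 signal was not tested. Without them its differences from untreated cells were 0.38 after ADR, 0.29 in small and 0.40 in big outgrowth. Apoe, the lipid carrier apolipoprotein E, was above the line throughout. Apoe was 6.61, 5.72 and 5.41 in untreated cells, 5.74, 5.40 and 5.38 after ADR and 6.48, 6.17 and 6.18 after ADR with 4-OHT. In the outgrowths it was 5.10 and 5.88 after ADR alone, 5.59, 5.75 and 5.74 in small cells and 5.74, 5.69 and 5.89 in big cells. Its largest value was that of the untreated cells of 4146, and every group overlapped the untreated one.

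The phagosome and lysosome genes included the gene with the lowest adjusted p of the 39. Mpeg1 (perforin-2, chr19:12460770-12465285) forms pores in engulfed bacteria and is expressed in macrophages and in some B cells. Its signal was 6.29, 5.90 and 5.36 without treatment, 7.22, 10.04 and 7.0 with ADR and 9.41, 8.64 and 8.05 with both compounds. The ADR outgrowth gave 8.15 and 7.07, the small cells 6.71, 6.94 and 4.64 and the big cells 6.79, 5.91 and 7.14. All 3 values after ADR with 4-OHT lay at least 2.69 above their own untreated array, by 3.12, 2.74 and 2.69, and the groups did not overlap. The means were 8.70 ± 0.68 and 5.85 ± 0.47 (SD, n = 3 each), a difference of 2.85 (SE 0.716, adjusted p = 0.0556), the lowest adjusted p of the 24 genes in any comparison. It passed without the 3 arrays (adjusted p = 0.00524) and without all 4 (2.69, adjusted p = 0.00505), and the adjusted p ran from 0.00505 to 0.275 over 31 alternative settings. In the outgrowths Mpeg1 was at 8.15 and 7.07 after ADR alone, and in the small and big cells 4 of 6 values were within 1 unit of the untreated array.

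Cybb encodes gp91phox, the membrane subunit of the phagocyte NADPH oxidase, which B cells also express. Untreated cells had 9.38, 10.04 and 7.78, ADR gave 9.90, 13.22 and 9.16, and ADR with 4-OHT gave 10.62, 12.13 and 10.26. Outgrown cells had 11.16 and 10.31 (ADR), 9.87, 10.21 and 10.36 (small) and 10.85, 10.20 and 10.52 (big). It was above the line on all arrays, and highest on ADR 5 d of 4936. With both compounds all values exceeded the untreated ones, with a difference of 1.94 (SE 0.753, adjusted p = 0.183), with an adjusted p of 0.0426 without the 3 arrays, and of 2.39 without all 4 (adjusted p = 0.0133). Gpnmb, a glycoprotein of lysosomes in phagocytes and melanocytes, was followed after its values were seen. For Gpnmb the untreated arrays gave 4.81, 4.43 and 4.89, the ADR arrays 5.82, 8.55 and 4.96 and the ADR with 4-OHT arrays 4.92, 5.13 and 5.17. Later, Gpnmb was 4.51 and 4.52 in ADR outgrowth, 5.02, 4.80 and 4.97 in small and 5.87, 7.39 and 6.43 in big outgrowth. All big outgrowth values lay above the untreated and the small outgrowth ones, by 1.85 (SE 0.627, adjusted p = 0.192) and 1.64 (SE 0.627, adjusted p = 0.381). The difference of ADR with 4-OHT from untreated was 0.36. Slc11a1, a metal transporter of phagosomes, was highest on ADR 5 d of 4936 (6.82) and between 4.48 and 5.68 on the others, and Plbd1, a lysosomal phospholipase, ran from 4.38 to 5.22.

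Surface and cytoplasmic markers were near background except on a few arrays. Adgre1 encodes F4/80, the classical surface marker of mouse macrophages. Adgre1 was 3.53, 4.70 and 4.13 in untreated cells, 4.82, 9.48 and 4.57 after ADR and 4.47, 4.77 and 4.69 after ADR with 4-OHT. In the outgrowths it was 4.68 and 4.15 after ADR alone, 3.74, 3.99 and 4.05 in small cells and 5.72, 4.44 and 6.32 in big cells. It was above the line on ADR 5 d of 4936 and on big outgrowth of 4146 and 5043, and under it on the other 14. Aif1 (Iba1), a calcium-binding protein of macrophages, was above it on ADR 5 d of 4936 (5.83) and big outgrowth of 5043 (6.25), and Ms4a7 on ADR 5 d of 4936 alone (5.75). The array of small outgrowth of 5043, which stood apart with these, held Adgre1 at 4.05, Aif1 at 4.32, Cd14 at 3.48 and Clec4d at 3.56, so the 3 arrays shared Pla2g7 but not these 4 genes.

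Counted array by array, the array ADR 5 d of 4936 held the highest value of 20 of the 39 genes, against 10.6% of all genes. On it 20 of 39 genes (51.3%) were at least 1 log2 unit above the untreated array of the same lymphoma, against 9.32% of all genes. After ADR the shares in 4146 and 5043 were 10.3% and 23.1% (all genes 1.65% and 0.643%). Both compounds gave 17.9%, 30.8% and 25.6% (all genes 4.63%, 4.98% and 2.22%). Big outgrowth gave 33.3%, 12.8% and 38.5% (all genes 4.62%, 3.06% and 5.56%) and small outgrowth 2.56%, 5.13% and 12.8% (all genes 3.02%, 0.66% and 4.30%). The ADR outgrowth gave 23.1% in 4146 and 2.56% in 4936 (all genes 3.62% and 4.48%). In these bulk cultures fewer cells of a type and less RNA per cell cannot be told apart.

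**Figure D3:**
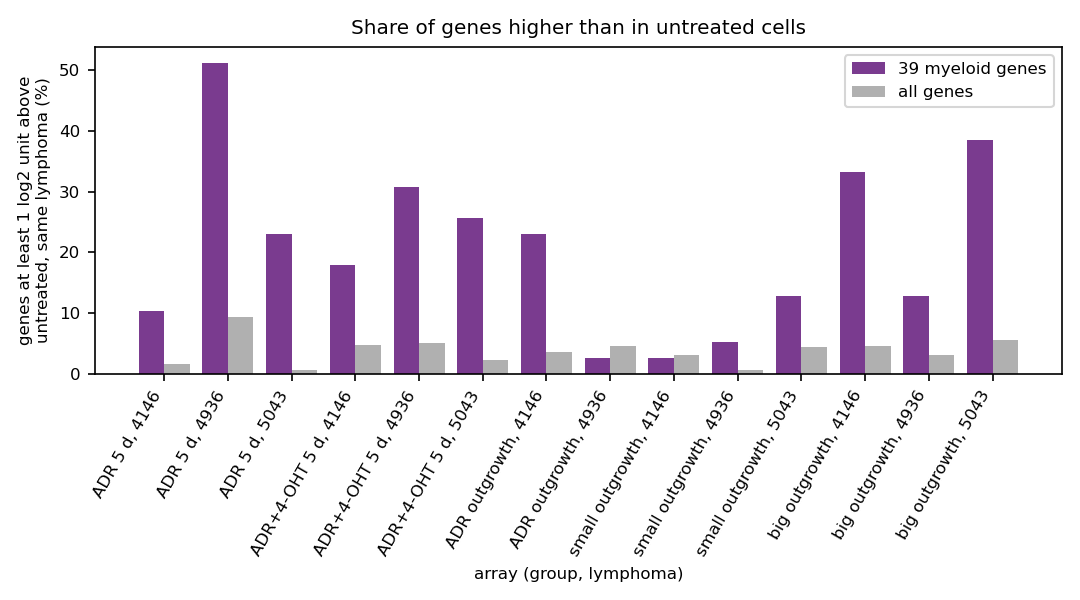
Percent of genes at least 1 log2 unit above the untreated array of the same lymphoma (vertical axis, from 0) on each of 14 arrays, for the 39 myeloid genes (purple) and all 18194 genes (grey). The purple bar exceeds the grey one on all arrays but ADR outgrowth of 4936 and small outgrowth of 4146, and is highest, 51.3%, on ADR 5 d of 4936.

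After 5 days of ADR, 14 of the 39 genes were at least 1 log2 unit above untreated in the fitted mean and none was as far below. The share of all genes past 1 unit in the fitted mean was not counted, so these counts, here and in the comparisons below, have no background beside them. The median difference over the 39 was 0.61, against 0.01 over all genes, and by lymphoma it was 0.34, 1.20 and 0.17. Without the 3 arrays that stood apart the median was 0.29 and the number of genes at 1 unit or more was 4. The median was 0.20 without ADR 5 d of 4936 alone and 1.07 without ADR 5 d of 5043. None of the 24 tested genes was called by limma at an adjusted p of 0.05, and none of all 11897 was (background 0%), with 10 of the 24 and 1348 of all genes (11.3%) at an unadjusted p under 0.05. At least 1 unit in every lymphoma was reached by 2 of 39, Fcer1g and Itgam, against 0.231% of all genes.

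After ADR with 4-OHT against untreated cells, 11 of 39 genes were at least 1 unit higher and none lower by that much. The median was 0.26 against -0.01 over all genes, and 0.15, 0.34 and 0.47 by lymphoma, with 0.42 when lymphoma 4146 was left out. With all 4 arrays left out, 11 genes were at least 1 unit higher and the median was 0.37. The mean of the granulocyte marker list was also higher in these cells (4.19 to 5.13 against 3.63 to 4.01 in untreated cells). The median difference of that list was 0.06, with 3 of its 12 genes at least 1 unit higher, and its part was not tested. Limma called 0 of 24 on all 17 arrays, while 350 of all genes (2.94%) were called, with 6 of the 24 and 2287 of all (19.2%) at an unadjusted p under 0.05. Without the 3 arrays it called 4 of 24, Csf1r, Sirpa, Mpeg1 and Cybb, all higher (background 3.76%), and without 4 arrays 5 of 24, with Tyrobp added (background 6.55%). Without ADR 5 d of 4936 alone it called Csf1r, Sirpa and Mpeg1 (background 3.85%), although that array is in neither group and enters through the shared spread. With array weights 8 of 24 were called (background 13.3%). At least 1 unit higher in every lymphoma were 6 of 39, Csf1r, Fcer1g, Sirpa, Cd14, Mpeg1 and Cybb, against 0.44% of all genes.

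**Figure D4:**
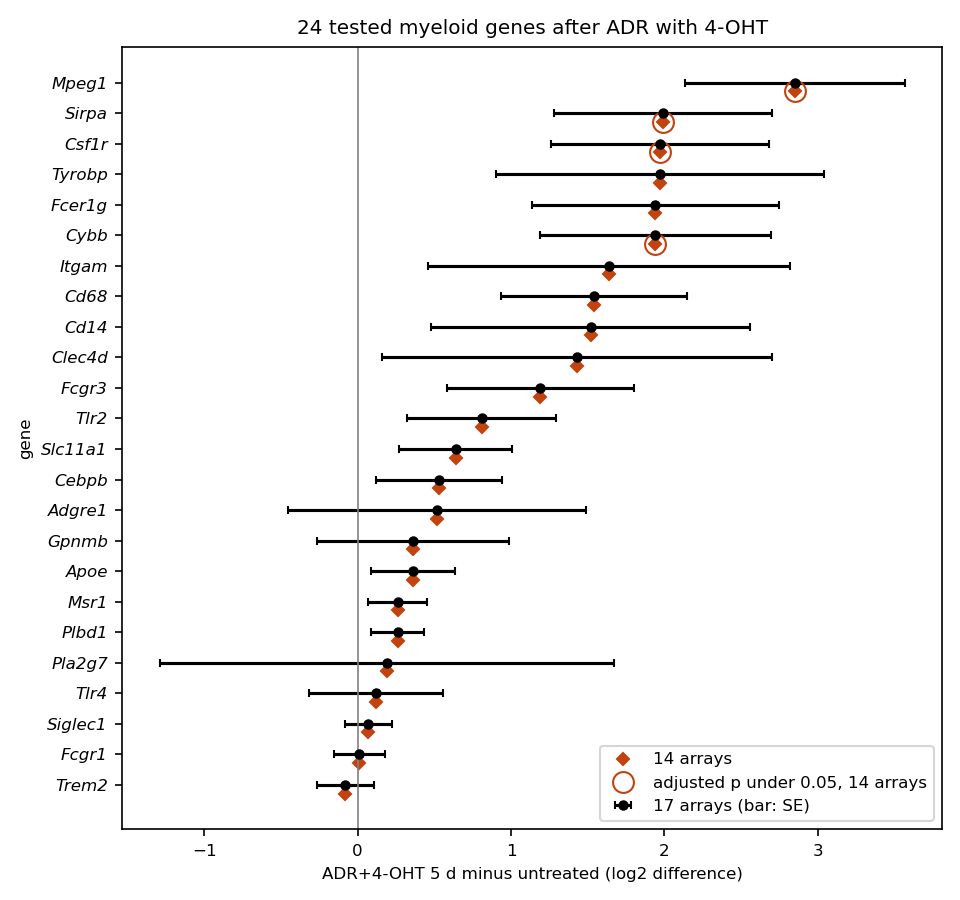
Fitted log2 difference between ADR+4-OHT 5 d and untreated cells for the 24 tested genes (rows), with black points and bars for the estimate on 17 arrays and its SE and orange diamonds for the estimate without the 3 arrays that stood apart. Rings mark the 4 genes with an adjusted p under 0.05 on the 14 arrays, Mpeg1, Sirpa, Csf1r and Cybb; the points and diamonds coincide by design, because the 3 arrays are in neither group, and only the adjusted p differs.

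The comparison of ADR with 4-OHT against ADR alone measures 4-OHT together with the Suv39h1 fusion on top of ADR, and the fusion and 4-OHT cannot be told apart. The median of the 39 genes was -0.04 (-0.02 over all genes), 0 genes were at least 1 unit higher and 4 at least 1 unit lower, Pla2g7 (-1.91), Adgre1 (-1.65), Gpnmb (-1.37) and Cd14 (-1.13). All 4 genes were at their highest on ADR 5 d of 4936, and without the 3 arrays their differences were -0.19, -0.05, -0.37 and 0.53. Then 4 genes were at least 1 unit higher, Mpeg1 (1.62, adjusted p = 0.251), Sirpa (1.34), Cybb (1.19) and Csf1r (1.14). Without ADR+4-OHT 5 d of 4146 as well, 10 genes were at least 1 unit higher, among them Tyrobp at 2.30 and Itgam at 1.64, which had been at -0.46 and -0.85 on all arrays, and the median was 0.13. Limma called 0 of 24, and 0% of all genes, with 2 of 24 and 1490 of all genes (12.5%) at an unadjusted p under 0.05. The rule of 1 unit in every lymphoma was met by 0 of 39 (0.055% of all genes). The direction for Cd14, Tyrobp and Itgam and that of the median thus rest on the arrays in doubt. The comparisons of either treatment with untreated cells share the untreated arrays.

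In the ADR outgrowth, with 2 lymphomas, 6 of 39 genes were at least 1 unit higher in the fit, with a median of 0.17 (all genes -0.02), 0.30 in 4146 and -0.06 in 4936. It was -0.04 without ADR outgrowth of 4146 and 0.39 without lymphoma 4936. The 6 were Itgam, Tyrobp, Mpeg1, Cybb, Fcer1g and Sirpa. Limma called 0 of 24 and 0% of all genes, and no adjusted p of the 24 was under 0.999, with 0 of 24 and 534 of all genes (4.49%) at an unadjusted p under 0.05. Mpeg1 was at least 1 unit higher in both lymphomas, 1 of 39 against 0.209% of all genes.

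In small outgrowth cells the median of the 39 was 0.07 (all genes 0.01), and 2 genes were at least 1 unit higher, Pla2g7 (1.73) and Cybb (1.08), both through 5043, the array that stood apart, with 0.29 and 0.53 without the 3 arrays, where Fcer1g (1.41) was the 1 gene past 1 unit. Limma called 0 of 24 and 0% of all genes, with 0 of 24 and 987 (8.3%) at an unadjusted p under 0.05. No gene of the 39 met the rule in every lymphoma (0.044% of all genes). Against the ADR outgrowth, which has 2 lymphomas, the median was -0.07 (all genes 0.04), 3 genes were at least 1 unit lower in the fit, Itgam (-1.92), Mpeg1 (-1.20) and Tyrobp (-1.03), and 1 was higher, Pla2g7 (1.09). Itgam alone was that far lower without the 3 arrays (-1.80), with Mpeg1 at -0.78, Tyrobp at -0.89 and Pla2g7 at 0.08. Leaving out ADR outgrowth of 4146 turned the median to 0.20. Limma called 0 of 24 (0% of all genes, 0 and 1598 at an unadjusted p under 0.05), and 0 of 39 met the rule (0.445% of all genes).

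Big outgrowth cells had 13 of 39 genes at least 1 unit above untreated and none as far below, with a median of 0.31 (all genes -0.02) and 0.12, 0.01 and 0.52 by lymphoma. The mean of the fibroblast marker list was also higher in big cells (6.41 to 7.38 against 4.43 to 4.85 in untreated cells), and its part in these differences was not tested. Without the 3 arrays 9 genes were at least 1 unit higher and the median was 0.16, and it was 0.06 without big outgrowth of 5043 alone. Limma called 0 of 24, against 49 of all genes (0.412%), with 5 of 24 and 1938 of all (16.3%) at an unadjusted p under 0.05. Tyrobp, Fcer1g, Cd68 and Gpnmb were at least 1 unit higher in every lymphoma, 4 of 39 against 0.78% of all genes. Against the small cells of the same cultures 10 of 39 were at least 1 unit higher, with a median of 0.23 (all genes -0.03). The count was 7 and the median 0.12 without the 3 arrays, and the median was 0.05 without big outgrowth of 5043 alone. There limma called 0 of 24 and 0% of all genes, with 2 of 24 and 1243 of all (10.4%) at an unadjusted p under 0.05, and Tyrobp (1.66, 1.40 and 2.80) and Fcer1g (1.84, 1.63 and 1.56) met the rule in every lymphoma, against 0.44% of all genes.

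Other genes of the same pathways were counted over lists made with earlier results of these data known. Of 20 myeloid cytokines and transcription factors, 16 were tested, and 1 was called in any comparison: Klf4, a factor of monocyte differentiation, rose in big outgrowth by 3.40 (SE 0.434, limma adjusted p = 0.0141). Csf2 (GM-CSF) had the next largest difference, 2.48 in the ADR outgrowth (SE 1.13, adjusted p = 0.999). After ADR with 4-OHT 1 of the 16, Csf1, passed without the 3 arrays, and 4 passed without all 4. Of all genes 3.76% and 6.55% passed in these settings, and the same shares stand beside the counts of the lists below. Of 18 signalling partners of ITAM receptors, 11 were tested and none was called in any of the 8 comparisons on all arrays. The largest difference after ADR was that of the adaptor Lcp2 (2.58, SE 1.13, adjusted p = 0.432), and the inhibitory receptor Pirb differed by 1.64 (SE 0.648, adjusted p = 0.394). These were 1.52 and 1.03 without the 3 arrays, and without all 4 Lcp2 passed after both compounds (2.28, adjusted p = 0.00505). Of the 5 partners of Cybb in the NADPH oxidase, 4 were tested and none was called on all arrays. Their largest differences were those of Ncf1 (p47phox) between small and ADR outgrowth (-1.28, SE 0.686, adjusted p = 0.44) and of Ncf4 (p40phox) between small outgrowth and untreated cells (-0.90, SE 0.321, adjusted p = 0.56). After ADR with 4-OHT, where Cybb was higher, Cyba (p22phox) differed by 0.52 and Ncf1 by 0.71, the latter by 1.23 without the 4 arrays (adjusted p = 0.0487). The difference of Ncf1 between small and ADR outgrowth was -0.74 without the 3 arrays. The list mean of these partners was 9.36 to 11.10 over the arrays. None of the 12 tested of 18 Toll-like receptor and signalling genes was called on all arrays, 3 passed after ADR with 4-OHT without the 3 arrays and 4 without all 4. Tlr1, which pairs with Tlr2, differed by 2.10 after ADR with 4-OHT (SE 1.11, adjusted p = 0.337, and 0.00524 without the 3 arrays), and Irak3, a brake on the pathway, by 1.95 after ADR (SE 1.19, adjusted p = 0.537), or 0.72 without the 3 arrays. Ly96 (MD-2), the partner of Tlr4, and Cd180, both named after their values were seen, differed by 1.33 and 1.46 after ADR with 4-OHT (SE 0.330 and 0.369, adjusted p = 0.0536 and 0.0567, and 0.0489 and 0.0214 without the 3 arrays). Of 26 further lipid and phagocyte genes 15 were tested, and Lgals3 (galectin-3) rose in big outgrowth by 6.49 (SE 0.815, adjusted p = 0.0141), while the tetraspanin Cd9 differed there by 3.43 (SE 1.03, adjusted p = 0.154). Of these 15, Ctsd and Plin2 passed after ADR with 4-OHT without the 3 arrays, and Ctsb, Ctsd and Fcgr4 without all 4; Ctsd also passed in big outgrowth in both.

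The lysozymes, the secreted enzymes left out of the 39, rose after ADR with 4-OHT, Lyz1 by 7.23 (SE 1.18, adjusted p = 0.0157) and Lyz2 by 5.87 (SE 1.15, adjusted p = 0.0272). Their mean was also higher after ADR alone, 8.09, 14.90 and 8.38 against 4.47, 5.17 and 3.23 in untreated cells, without a call. It was 7.98 to 8.28 in ADR outgrowth and 7.80 to 8.63 in big outgrowth, also without a call. Between ADR with 4-OHT and ADR their median difference on all arrays was 0.38, and neither was called. The mean of the lysozymes after both compounds was 10.81, 13.19 and 8.51. That was lower than after ADR alone only in 4936, whose ADR array is in doubt, and the array of both compounds of 4146 is in doubt as well. The difference of 0.38 thus rests on arrays in doubt. Their mean was highest on ADR 5 d of 4936 (14.90), as were most of the 39 genes, and was 2.86 to 5.70 in small outgrowth.

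Markers of other cell types moved with some of the groups. Of 13 fibroblast genes with a probe set 8 were tested, and 5 rose in big outgrowth, Bgn by 5.61, Fn1 by 5.55, Col1a2 by 4.70, Dcn by 3.73 and Pdgfra by 1.22 (adjusted p = 0.0134, 0.0134, 0.0324, 0.0424 and 0.0401). Without the 4 arrays Dcn did not pass (adjusted p = 0.0601). The fibroblast list mean was 4.43 to 4.85 in untreated cells, 5.54 to 6.62 after ADR, 4.71 to 5.37 after ADR with 4-OHT, 4.29 to 4.63 in ADR outgrowth, 4.91 to 5.54 in small and 6.41 to 7.38 in big outgrowth. Of 6 tested granulocyte genes none was called on all arrays, with the largest differences for Lcn2 in big outgrowth (4.87, SE 1.39, adjusted p = 0.137) and Mmp8 after ADR (3.17, SE 0.966, adjusted p = 0.319, or 2.05 without the 3 arrays). After ADR with 4-OHT Lcn2 passed without the 3 arrays (4.59, adjusted p = 0.0426) and Lcn2 and Mmp8 passed without all 4. The list mean was 3.63 to 4.01 in untreated cells, 4.16 to 5.53 after ADR, 4.09 to 4.59 in ADR outgrowth, 3.76 to 4.21 in small and 4.38 to 4.64 in big outgrowth. S100a8 was highest on ADR 5 d of 4936 (7.38), while S100a9 (3.33) and Ngp (3.53) were under the line there. Of the 12 granulocyte genes with a probe set, 6 were above the line on that array. The primary granule genes Mpo (3.45 to 4.18), Elane (3.63 to 4.50) and Ctsg (3.39 to 4.16) were under the line on all arrays. Prtn3, also a primary granule gene, was above it on most arrays. It ran from 3.79 to 8.07 (ADR outgrowth of 4146), with 4.17, 5.32 and 5.19 in untreated cells. The list means of T and NK cells (3.79 to 4.51), dendritic cells (4.63 to 5.15), erythroid cells (4.59 to 4.97), endothelium (4.60 to 4.87) and mast cells (3.62 to 3.86) were near or under the line on all arrays, and none of their tested genes was called. Single genes of these lists were above it, such as Flt3 (6.16 to 8.85) and Ccr7 (4.91 to 7.82). On ADR outgrowth of 4146 Cd3d was 6.10 and Cd3g 6.23, against 4.75 and 0.51 on the untreated array of 4146. Most other T and NK cell genes were lower there than untreated, such as Cd3e (4.57 against 5.15). On ADR 5 d of 4936 the B-cell marker Ms4a1 (CD20) was also at its highest, 12.26. The B-cell list mean was 9.10 there, against 8.29 on the untreated array of 4936. Its other genes went both ways, such as Cd79b (12.09 against 10.81) and Cd22 (9.60 against 10.35). After ADR with 4-OHT Cd22, which was lower, passed without the 3 arrays but not without all 4. What part cells of other types have in the values of the 39 genes in the other groups was not tested either.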

How the data were processed

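Total RNA of 17 samples was measured on Affymetrix arrays. The authors deposited log2 values of 45101 probe sets, made with RMA and Partek per the submitters' processing notes (versions not given in the sources used here). The median of a probe set was identical in the 3 lymphomas (tolerance 1e-06) for all of them, a step that the labels do not describe. Of the probe sets, 34958 carried 1 gene symbol in the platform annotation, 932 several and 9211 were not listed.

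From these values each gene was taken as its single-symbol probe set with the highest mean. Genes with at least 4.86, the median of all values, on at least 3 arrays were tested with limma 3.58.1 in R 4.3.3, with 6 groups and the lymphoma as block, in 8 comparisons, with Benjamini-Hochberg adjustment over 11897 genes in each at 0.05. The lymphoma numbers pair the arrays because, per the labels, each lymphoma received both treatments. The fit was tested on simulated data. Tables and plots were made with Python 3.11.15.

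The 39 genes, the lists and the alternatives were chosen with earlier results of these data known. Values on all arrays are given, within each role, for the gene with the highest mean and the one with the largest difference; Fcer1g, Sirpa and Gpnmb were added after their values were seen. Of each further list, genes that passed or the 2 with the largest differences are named. Alternatives were no block, each array or lymphoma left out, without the 3 or 4 arrays in doubt, only the compared groups, array weights, quantile normalization, a robust variance trend, no or a stricter filter, the mean over probe sets, and values under the line set to it. The number of arrays limits the precision.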

Additional observations from a re-analysis of the deposited data

How the results depend on the processing

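Over 31 alternatives, 479 of 496 counts and medians stayed within 1.5 times the count or, for a median, within its SD between lymphomas, which is wide, and 17 moved. Each count was 0 on all arrays in all 8 comparisons, so an unmoved count is one that stayed at 0. Many differences and medians could not move, since the filters and the variance trend do not enter them. Nor do most arrays that are in neither compared group. The totals here and below are thus no measure of robustness. Of 744 values of single genes, 721 kept their direction and side of the threshold, 23 passed the threshold where they had not, and 0 reversed. The 744 values cover only Mpeg1, Csf1r, Sirpa, Cybb, Tyrobp, Fcer1g, Fcgr3 and Cd68. Each was taken against untreated cells, after ADR, after ADR with 4-OHT and in big outgrowth. Other comparisons were left out. Between ADR with 4-OHT and ADR, Tyrobp turned from -0.46 on all arrays to 0.97 without the 3 arrays. The number of the 24 tested genes called after ADR with 4-OHT against untreated, 0 on all arrays, was 1 without the replicate block (Mpeg1, adjusted p = 0.048), 4 without 3 arrays, 5 without 4 arrays, 8 with array weights, and 0 to 3 when 1 array or lymphoma was left out. It was 3 without ADR 5 d of 4936 and 1 (Mpeg1) without big outgrowth of 5043. The block changed no other call of the 24 genes. With array weights, whose estimation stopped before its convergence tolerance, 1 gene was called between ADR with 4-OHT and ADR (Fcgr1, -0.53) and 1 in big outgrowth against untreated (Fcer1g, 3.08). In big outgrowth the range with 1 array or lymphoma left out was 0 to 1, with Adgre1 called without lymphoma 4936 and Gpnmb without ADR 5 d of 4936. With values under 4.86 set to it, the median of the 39 genes was 0.07 after ADR with 4-OHT, 0.0 in small and 0.04 in big outgrowth, since most of the genes near the line then have no difference. With 1 array or lymphoma left out, the median ran from 0.04 to 0.14 in small outgrowth against untreated, and from -0.16 to 0.20 in small against ADR outgrowth, where it was 0.11 without lymphoma 4146 and 0.20 without ADR outgrowth of 4146. The same range was 0.20 to 1.07 for ADR, 0.21 to 0.42 for ADR with 4-OHT, -0.04 to 0.39 for ADR outgrowth and 0.06 to 0.36 for big outgrowth, each against untreated, -0.27 to 0.18 for ADR with 4-OHT against ADR, and 0.05 to 0.32 for big against small cells. The cause of these moves was not tested. The filter was computed on all 17 arrays in every alternative. Genes under the line, 11 of the 39, have no measured order.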

Other observations

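For 14 of the 39 genes more than 1 probe set was named by a single symbol, and these did not always give the same difference. For Cybb the 3 probe sets differed between ADR with 4-OHT and untreated cells by 1.94, 1.65 and 1.78. For Csf1r the 3 values were 1.97, 0.70 and 0.04, although their mean levels were 6.06, 5.92 and 5.69, all above the line. For Sirpa they were 1.99, 0.16 and 0.11 at mean levels of 6.45, 3.78 and 6.19. The second probe set of Fcgr1, at a mean level of 3.84, differed by 1.33 after ADR, against 0.49 for the one used. The second probe set of Gpnmb, at a mean level of 2.98, differed by -0.04 in big outgrowth, against 1.85 for the one used. The transcripts that these probe sets detect were not analysed here.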
